A study of Mus musculus with 2 samples.

Results

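The 10 genes described here encode receptors of the tumour necrosis factor (TNF) receptor superfamily: Fas, Tnfrsf1a, Tnfrsf10b, Tnfrsf21, Ngfr, Tnfrsf1b, Tnfrsf12a, Cd40, Ltbr and Tnfrsf11b. They were taken by gene symbol, and all 10 were found among the 31053 genes of the count matrices. The data are 2 droplet single-cell RNA libraries of mouse lung, 1 from a p47phox-KI source (KI) and 1 from a wild-type source (WT). Both are of strain C57BL/6 and both carry the label acute lung injury. p47phox is the product of Ncf1, a subunit that helps to assemble the NADPH oxidase of phagocytes. What was inserted into the KI allele, the agent and time of injury, the age and number of animals and the gate of the cell sort are not given in the labels. Lungs were digested with collagenase, and the cells were stained for viability and for the leukocyte antigen CD45.2 before sorting.

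Receptors of this superfamily bind mostly trimeric ligands of the TNF family. One group carries a death domain in the cytoplasm and can recruit caspases through adaptors such as Fadd and Tradd. The other members bind TRAF proteins and feed the NF-kB pathways, and soluble members act as decoys that hold ligand away from its receptor. In injured lung the family is known for endothelial activation, epithelial cell death and repair.

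The KI library held 9120 barcodes with 43445797 unique molecular identifiers (UMIs), and the WT library 10473 barcodes with 43376713. Barcodes with at least 200 genes and at most 10% mitochondrial UMIs were used, less the likely doublets, which left 6636 KI and 7735 WT cells with a median of 3774.5 and 3307 UMIs. Of 56 clusters, 44 could be named from marker genes, and they held 13603 of 14371 cells in 11 classes. Each class name ends in "-like" in the figures and stands for clusters that carry that type's markers. The 5 classes that reached 100 cells on both sides were compared: endothelial (3533 KI and 4309 WT cells), fibroblast (1134 and 1371), smooth muscle or pericyte (532 and 501), type 2 alveolar (475 and 450) and type 1 alveolar (244 and 431). The 4 leukocyte classes together held 125 KI and 239 WT cells. Transcripts of 4 Y-linked genes stood at 227 CPM (UMIs of a gene scaled to a fixed total of UMIs) in the KI leukocyte classes, against 2.90 in the WT leukocyte classes. In the other named classes they stood at 0.736 in KI cells and 0.0314 in WT cells, so the KI leukocytes differ from the remaining cells in sex-linked transcripts. Ncf1 stood at 150.5 CPM in KI leukocytes, against 192.7 CPM in WT leukocytes. The libraries shared 30 barcodes, 14 of them among the kept cells.

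Levels are CPM over the summed UMIs of a class in a library, and brackets hold 95% intervals for counting error only. With 1 library per group no test across animals exists, so a difference is given as a log2 ratio of KI over WT, and "past 0.5" means a log2 ratio beyond 0.5 in either direction for a gene with at least 20 UMIs in the class. Values compare these 2 libraries and not the genotypes. UMIs are read near the 3′ end, and levels are compared for the same gene between cell types, never between genes.

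Promoter sequences of 7 of the 10 genes stand in the RefSeq table for GRCm38.p6. The 250 bases before the start of 3 of them are shown, since the results turn on these genes: Fas set the endothelium apart, and Tnfrsf12a and Tnfrsf21 moved in opposite directions in the smooth muscle or pericyte class. Capitals mark matches to any of 6 motifs searched on both strands, which were a stricter and a looser form of the NF-kB motif, TGANTCA for AP-1, CATTCC for TEAD, GAGGAAG for ETS factors and TTCNNNGAA for STAT. The motifs were chosen and searched after the sequences were at hand.
Fas, chr19:34290409-34290658, plus strand: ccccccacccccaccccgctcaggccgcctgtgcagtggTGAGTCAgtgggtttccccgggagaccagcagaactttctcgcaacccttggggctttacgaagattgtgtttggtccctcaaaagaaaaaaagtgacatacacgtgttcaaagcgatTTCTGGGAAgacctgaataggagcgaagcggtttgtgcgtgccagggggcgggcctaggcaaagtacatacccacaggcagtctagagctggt
Tnfrsf12a, chr17:23677450-23677699, minus strand: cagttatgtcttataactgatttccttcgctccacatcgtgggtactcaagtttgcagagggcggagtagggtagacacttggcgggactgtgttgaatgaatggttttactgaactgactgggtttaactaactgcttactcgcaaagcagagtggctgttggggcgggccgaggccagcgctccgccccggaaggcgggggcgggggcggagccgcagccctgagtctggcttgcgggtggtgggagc
Tnfrsf21, chr17:43016305-43016554, plus strand: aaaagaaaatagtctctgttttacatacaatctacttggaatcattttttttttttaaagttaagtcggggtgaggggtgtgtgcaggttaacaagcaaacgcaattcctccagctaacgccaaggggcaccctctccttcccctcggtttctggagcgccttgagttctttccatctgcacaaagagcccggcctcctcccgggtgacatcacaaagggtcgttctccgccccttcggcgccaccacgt
The Fas window held 1 AP-1 letter match, which 6.75% of all 32851 promoter windows of this length hold, and 1 STAT match, which 7.02% hold. The windows of Tnfrsf12a and Tnfrsf21 held no match to any of the 6 motifs. Among the windows not shown, Tnfrsf1b held 4 matches (TEAD, ETS and STAT) and Tnfrsf1a 2 (looser NF-kB and STAT). Ngfr held 1 (looser NF-kB) and Ltbr 0. The stricter NF-kB form was in 1.41% of all windows, and the looser one in 16.5%. CATTCC stood in 12.6% and GAGGAAG in 10.6%. The Tnfrsf12a window held 15 CpG dinucleotides, that of Tnfrsf21 12 and that of Fas 11, against a median of 6 over all windows. A letter match is a description and not a binding site.

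Fas, the death receptor for Fas ligand, was mainly an endothelial transcript. It stood at 546 CPM [535, 558] in KI endothelial cells, against 625 CPM [614, 637] in WT endothelial cells. The lymphatic endothelial class followed with 378 CPM in KI cells and 452 CPM in WT cells. That class rests on a single cluster led by the lymphatic markers Ccl21a and Mmrn1 but also by the venous markers Slc6a2, Vwf and Ackr1. Its 5 lymphatic markers summed to 568 CPM in KI and 2479 CPM in WT cells. The 8 endothelial markers summed there to 7312 CPM in KI and 6901 CPM in WT cells. Whether the class mixes lymphatic and venous cells, and in unlike parts in the 2 libraries, was not tested. All other classes lay below the lymphatic class in both libraries. Next in KI cells came neutrophils at 124 CPM [25.6, 363] and fibroblasts at 107 CPM [96.6, 117], which did not differ beyond their intervals. In WT cells T or NK cells (200 CPM), neutrophils (163 CPM) and fibroblasts (137 CPM) followed the lymphatic class. Type 2 alveolar cells were lowest in both libraries, with 17.1 CPM in KI and 15.8 CPM in WT cells. The endothelial log2 ratio was -0.19 [-0.23, -0.15], a small difference beyond counting error. The plot of receptor levels shows the same order in both libraries for the endothelial and epithelial classes.

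**Figure D1:**
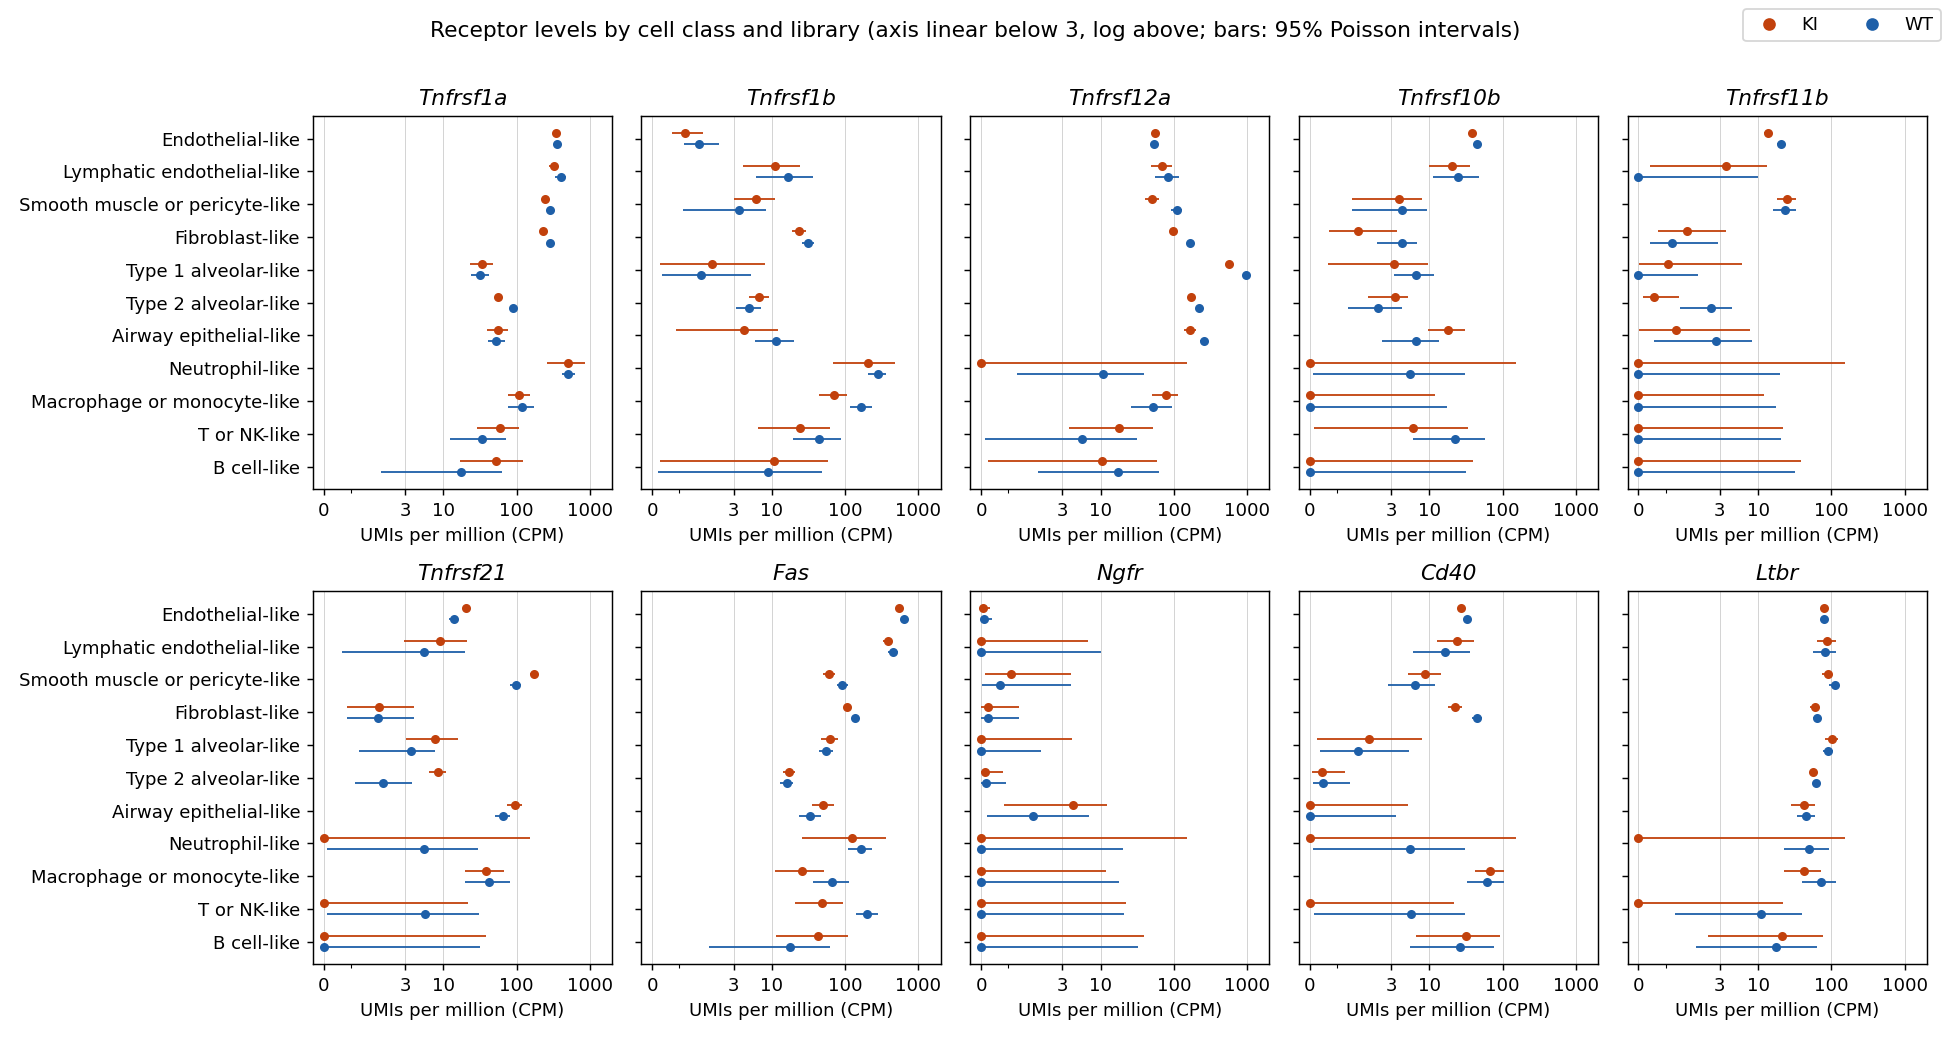
Levels of the 10 receptors in CPM (x axis, linear below 3 and logarithmic above) in the 11 named cell classes, KI points above WT points, with 95% Poisson intervals. Fas stood at 546 CPM in KI and 625 CPM in WT endothelial cells, Tnfrsf12a at 564 CPM in KI and 975 CPM in WT type 1 alveolar cells, and intervals are wide in the small leukocyte classes.

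Within the endothelium Fas did not move in one direction. Aerocyte-like capillary cells, the Car4-bearing cells that face the air space, had 544 CPM [526, 563] in the KI library and 487 CPM [471, 504] in the WT library, a log2 ratio of 0.16 [0.09, 0.23]. General capillary-like cells had 602 CPM in KI and 761 CPM in WT cells, a ratio of -0.34 [-0.40, -0.28]. Arterial-like cells had 683 CPM in KI and 789 CPM in WT cells, and venous-like cells 452 CPM in KI and 671 CPM in WT cells (-0.57 [-0.79, -0.35]). The order of these subclasses therefore differs: in WT cells aerocytes were lowest, and in KI cells venous cells were. The aerocyte and general capillary ratios kept their sign under all 14 alternatives. The venous ratio was 0.02 under the stricter cell filter, and the arterial one (-0.21) kept its sign under 8 of 12.

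Tnfrsf1a, the TNF receptor with a death domain, was broad. It stood at 345 CPM [336, 354] in KI endothelial cells, against 356 CPM [347, 365] in WT endothelial cells. Neutrophils had the top level, 497 CPM [257, 868] in KI and 509 CPM [412, 623] in WT cells, where the KI interval overlaps that of the endothelium. The lymphatic endothelial class, which also carried venous markers, had 321 CPM in KI and 400 CPM in WT cells, not beyond the intervals of the endothelial class. Smooth muscle or pericyte cells followed with 244 CPM in KI and 287 CPM in WT cells, and fibroblasts with 233 CPM in KI and 285 CPM in WT cells. These last 2 classes do not differ from each other beyond their intervals in either library. Type 2 alveolar cells had 55.9 CPM in the KI library, against 88.9 CPM in the WT library, and this ratio of -0.67 [-0.86, -0.48] was the only one past 0.5 for this gene among the 5 compared classes. The lower KI level held in the largest type 2 cluster (52.9 CPM in KI, 88.2 CPM in WT; -0.74, with an interval below 0) and in the Calca-led one (47.9 CPM in KI, 75.8 CPM in WT; -0.66 [-1.05, -0.28]). The class ratio ranged from -0.72 to -0.40 over the alternatives, and the stricter cell filter, which gave -0.40, ends the call, as does keeping doublets (-0.44). In type 1 alveolar cells the gene was low, 33.9 CPM in KI and 32.1 CPM in WT cells.

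One endothelial cluster stood apart for Tnfrsf1a. This general capillary-like cluster, led by Tmem252, Grrp1 and Inhbb, had 833 CPM in its 54 KI cells and 637 CPM in its 274 WT cells. The main general capillary cluster, led by Gpihbp1 and Plvap, had 371 CPM in KI and 327 CPM in WT cells. Both clusters were higher in KI cells, by 0.39 [0.17, 0.60] and 0.18 [0.09, 0.28] on the log2 scale, while the general capillary subclass as a whole gave 0.05 [-0.03, 0.13]. The Tmem252-led cluster took a smaller part of the KI than of the WT subclass. In an alternative each cluster was given the same weight in both libraries, by its cells over both. With these same cluster weights the subclass ratio was 0.23, and under the stricter cell filter it was -0.19. The part of the cluster mix was not tested.

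Tnfrsf10b, the TRAIL death receptor of the mouse, was largely confined to the endothelium among the classes with many cells. It had 37.9 CPM [35.0, 41.0] in KI endothelial cells and 44.6 CPM [41.5, 47.8] in WT ones. The lymphatic endothelial class, which also carried venous markers, followed with 20.1 CPM in KI and 24.7 CPM in WT cells. Airway cells had 13 UMIs in KI and 7 UMIs in WT cells. Smooth muscle or pericyte cells had 3.86 CPM in KI and 4.22 CPM in WT cells. No UMI was seen in macrophage or monocyte cells of either library, where 3 UMIs would be 9.64 CPM in KI and 14.2 CPM in WT cells. Aerocyte-like cells had 56.0 CPM in KI and 49.2 CPM in WT cells (0.19 [-0.03, 0.40]). General capillary-like cells had 24.7 CPM in KI and 43.8 CPM in WT cells (-0.83 [-1.13, -0.54]), and arterial-like cells 18.7 CPM in KI and 38.1 CPM in WT cells (-1.03 [-2.08, -0.06]). The general capillary ratio ranged from -1.07 to -0.61 over the 14 alternatives. Its ligand Tnfsf10 (TRAIL) was also mainly endothelial, 107 CPM in KI and 102 CPM in WT cells.

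Tnfrsf21, or death receptor 6, was the member that was higher in the KI library in most places where it was measured. Its top class was smooth muscle or pericyte, with 173 CPM [154, 193] in KI and 97.7 CPM [82.2, 115] in WT cells, a log2 ratio of 0.82 [0.53, 1.12]. Of the UMIs behind these levels, 311 of 314 in KI cells and 138 of 139 in WT cells lay in pericyte-like cells, where the level was 266 CPM in KI and 154 CPM in WT cells. The smooth muscle-like cluster had 0 UMIs in both libraries, where 3 UMIs would be 14.7 CPM in KI and 12.5 CPM in WT cells. Both large pericyte clusters differed in the same direction. The Spp1-led one had 273 CPM in KI and 167 CPM in WT cells (0.71 [0.34, 1.09]). The Pdzd2-led one had 266 CPM in KI and 128 CPM in WT cells (1.06 [0.49, 1.65]). A UMI was found in 46.0% of KI and 30.1% of WT pericyte-like cells. In fibroblasts, where the level is near 2 CPM, the share was 0.705% of KI and 0.438% of WT cells, at a similar median depth (2765 and 2314 UMIs for fibroblasts, 2880 and 2420 for the smooth muscle or pericyte class). After thinning each cell to 2000 UMIs the pericyte shares were 41.2% in KI and 29.3% in WT cells.

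In endothelial cells Tnfrsf21 had 20.6 CPM [18.5, 22.9] in the KI library and 13.8 CPM [12.1, 15.7] in the WT library (0.57 [0.33, 0.82]). Median-ratio scaling gave 0.498, which ends the call by a small margin. Aerocyte-like cells carried most of it, 32.7 CPM in KI and 21.0 CPM in WT cells (0.64 [0.32, 0.95]). In type 2 alveolar cells it was low, with 58 UMIs (8.48 CPM) in KI and 13 UMIs (2.19 CPM) in WT cells, a ratio of 1.96 [1.07, 2.95]. Most of the KI counts came from the Calca-led cluster, with 43 UMIs in 18 of 173 KI cells and 4 UMIs in 3 of 165 WT cells. The type 2 ratio ranged from 1.52 to 2.73 over the alternatives. Airway epithelial cells, few in number, had 68 UMIs in each library, which is 94.99 CPM [73.8, 120] in KI and 64.7 CPM [50.2, 81.96] in WT cells. Next came macrophage or monocyte cells, with 38.6 CPM in KI and 42.7 CPM in WT cells. Fibroblasts, B cells and T or NK cells had at most 8 UMIs in either library.

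Ngfr, the p75 neurotrophin receptor, was close to absent. It had 18 UMIs in KI and 16 UMIs in WT kept cells. 10 of the KI UMIs came from 1 cell and 7 of the WT UMIs from 1 cell of an unnamed cluster led by the neuronal genes Pcsk1n, Prph and Tubb3, which held 95 KI and 7 WT cells.

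Tnfrsf12a (Fn14), the receptor for TWEAK, has no death domain and is known as a gene that injury and growth factors induce in epithelium. Its top class in both libraries was type 1 alveolar, with 564 CPM [517, 615] in KI and 975 CPM [928, 1023] in WT cells. The ratio was -0.79 [-0.93, -0.64]. Airway and type 2 cells came next. Airway epithelial cells had 166 CPM in KI and 259 CPM in WT cells (-0.64 [-0.96, -0.32]), and type 2 alveolar cells 171 CPM in KI and 223 CPM in WT cells (-0.38 [-0.50, -0.27]). The KI intervals of these 2 classes overlap. Fibroblasts had 96.7 CPM in KI and 167 CPM in WT cells (-0.79 [-0.97, -0.61]). Smooth muscle or pericyte cells had 50.2 CPM in KI and 109 CPM in WT cells (-1.12 [-1.51, -0.74]). In endothelial cells the libraries were alike within counting error, 55.9 CPM in KI and 53.7 CPM in WT cells (0.06 [-0.07, 0.19]). Tnfrsf12a was thus lower in the KI library in 4 of the 5 compared classes, and past 0.5 in 3 of them.

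The level of Tnfrsf12a differed more between clusters of a class than between libraries. Among type 1 alveolar cells the cluster led by Nt5e, Itgb6 and F3 had 3026 CPM in 11 KI cells and 2557 CPM in 48 WT cells. The main type 1 cluster, led by Scnn1g and Rtkn2, had 389 CPM in 121 KI cells and 706 CPM in 248 WT cells (-0.86 [-1.08, -0.64]). So the KI level was lower within the main cluster, while in the Nt5e-led one it was slightly higher (0.24 [0.01, 0.47]), and that cluster took a smaller part of the KI cells. Over the clusters with at least 20 cells in each library, at equal weights, the class ratio was -0.55, and over all alternatives it ran from -1.13 to -0.55. The low-depth cluster led by Akap5 and Cldn18 had 424 CPM in KI and 395 CPM in WT cells.

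In type 2 cells the small Sprr1a- and Areg-led cluster had 801 CPM in KI and 959 CPM in WT cells, against 109 CPM in KI and 181 CPM in WT cells of the main cluster. The Calca-led cluster had 98.3 CPM in KI and 94.1 CPM in WT cells. In fibroblasts the Fgl2- and Saa3-led cluster had 424 CPM in 53 KI cells and 440 CPM in 118 WT cells, and the cluster led by Slc39a14 had 338 CPM in 106 KI and 381 CPM in 256 WT cells. Neither differs between libraries beyond counting error. The most numerous fibroblast cluster, led by Slc7a10 and Inmt, had only 19.5 CPM in KI and 34.5 CPM in WT cells. The high clusters made up a smaller part of the KI fibroblasts, and at equal cluster weights the fibroblast ratio fell short of 0.5, at -0.33. With each library clustered alone it was -0.25. The smooth muscle or pericyte ratio was -0.92 at equal weights. There the smooth muscle-like cluster had 187 CPM in KI and 387 CPM in WT cells, and the Mustn1-led one 89.6 CPM in KI and 160 CPM in WT cells.

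**Figure D2:**
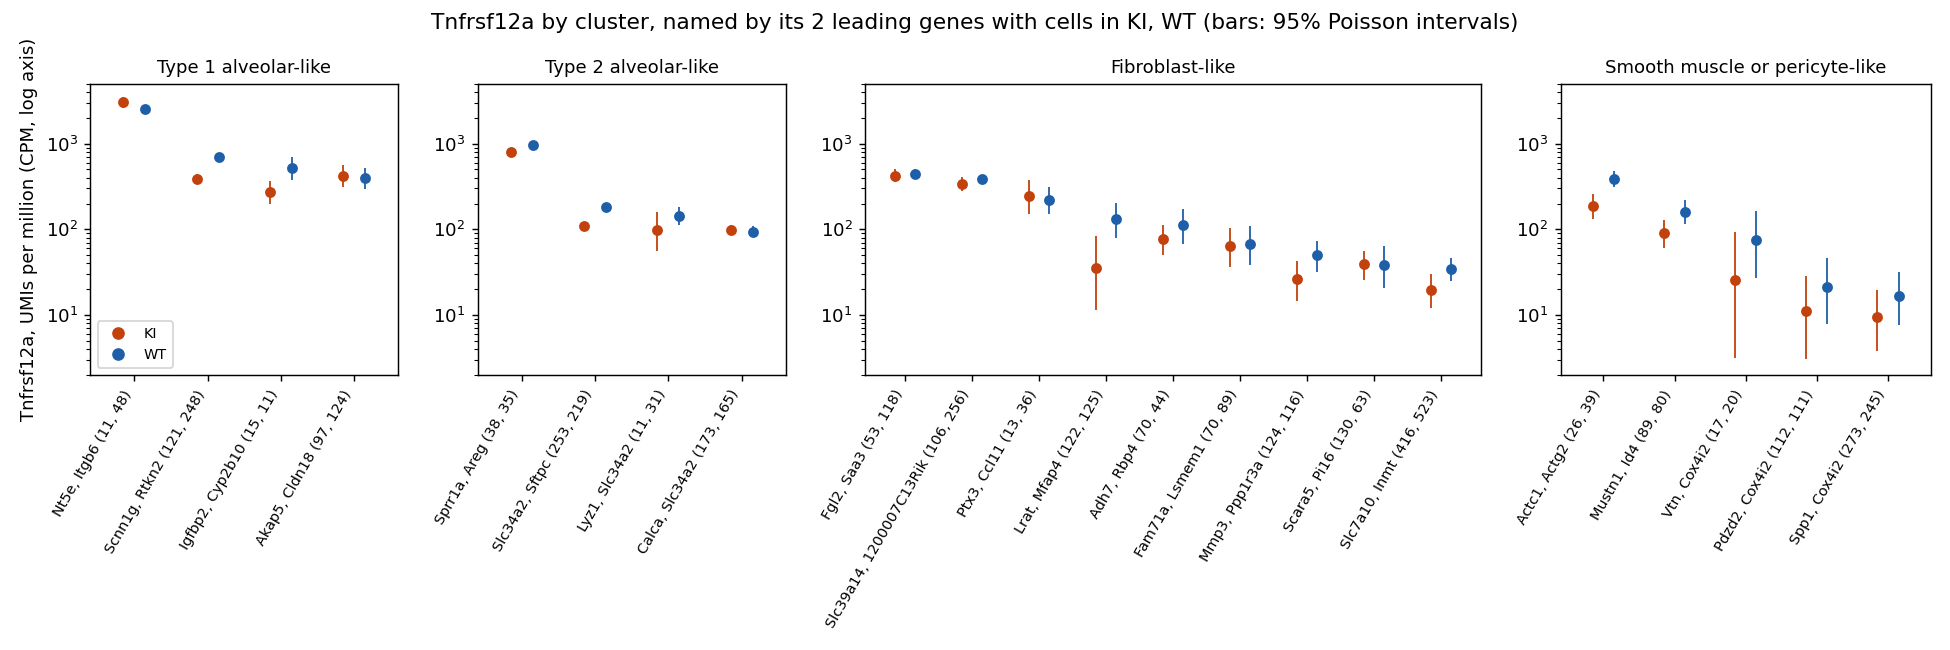
Tnfrsf12a in CPM (y axis, logarithmic) in the clusters of 4 classes that hold 10 or more cells of both libraries, KI points left of WT points, with 95% Poisson intervals. Clusters are named by their leading genes, with the KI and WT cell numbers. The Nt5e-led type 1 cluster stood at 3026 CPM in KI and 2557 CPM in WT cells, and the main type 1 cluster at 389 CPM in KI and 706 CPM in WT cells.

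Inside the endothelium Tnfrsf12a went in opposite directions. Aerocyte-like cells had 59.3 CPM in KI and 42.9 CPM in WT cells (0.47 [0.24, 0.69]). General capillary-like cells had 49.7 CPM in KI and 63.2 CPM in WT cells (-0.35 [-0.57, -0.13]). A Bdkrb2-led aerocyte cluster held the top level among the aerocyte clusters with more than 20 cells, 164 CPM in KI and 98.0 CPM in WT cells. The general capillary ratio rests in part on the mix of clusters, since it was -0.11 at equal cluster weights. The ligand Tnfsf12 (TWEAK) was found in all compared classes, with 114 CPM in KI and 105 CPM in WT smooth muscle or pericyte cells and 87.1 CPM in KI and 91.8 CPM in WT fibroblasts. In type 2 cells it was higher in the KI library, 20.6 CPM in KI and 13.6 CPM in WT cells (0.60 [0.19, 1.01]).

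**Figure D3:**
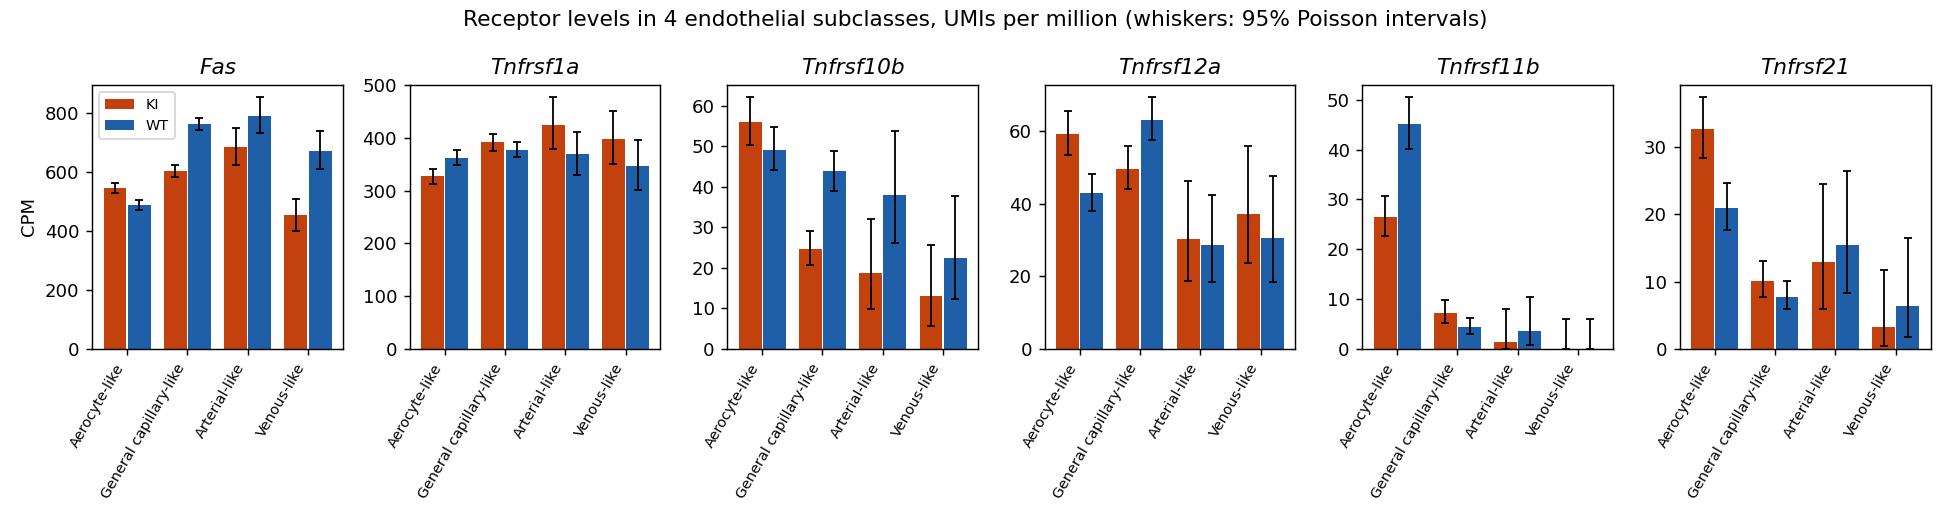
Levels of 6 receptors in CPM (y axis, from 0) in 4 endothelial subclasses, KI bars left of WT bars, with 95% Poisson intervals. Fas stood at 544 CPM in KI and 487 CPM in WT aerocyte-like cells, and at 602 CPM in KI and 761 CPM in WT general capillary-like cells, while Tnfrsf11b lay mostly in aerocyte-like cells.

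Tnfrsf1b, the TNF receptor without a death domain, was a leukocyte and fibroblast transcript. Neutrophils had 207 CPM [67.2, 483] in 11 KI cells and 276 CPM [206, 363] in 96 WT cells. Macrophage or monocyte cells had 70.7 CPM [44.3, 107] from 22 UMIs in KI and 166 CPM [116, 231] from 35 UMIs in WT cells. Fibroblasts had 23.5 CPM in KI and 31.1 CPM in WT cells (-0.40 [-0.81, -0.00]). The Slc39a14-led fibroblast cluster held more, 50.3 CPM in KI and 66.2 CPM in WT cells. In the Fgl2-led one the direction was the other, 68.5 CPM in KI and 34.0 CPM in WT cells. Endothelial cells had 1.21 CPM in KI and 1.73 CPM in WT cells, so that Tnfrsf1a and Tnfrsf1b differ in where they are found. The endothelial ratio of -0.51 [-1.40, 0.35] rests on 20 KI and 30 WT UMIs and its interval spans 0.

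Cd40, the costimulatory receptor known best from B cells and macrophages, was found in leukocytes, endothelium and fibroblasts. Macrophage or monocyte cells had 67.5 CPM [41.8, 103] in KI and 61.7 CPM [32.8, 105] in WT cells. B cells had 31.6 CPM in KI and 26.1 CPM in WT cells from 3 UMIs in each library. Endothelial cells had 27.0 CPM in KI and 33.1 CPM in WT cells (-0.30 [-0.48, -0.11]). Fibroblasts had 22.3 CPM [17.9, 27.4] in KI and 44.9 CPM [38.6, 52.0] in WT cells, a ratio of -1.01 [-1.40, -0.64]. Of the named fibroblast subclasses, alveolar fibroblast-like cells had the higher Cd40 level, 37.96 CPM in KI and 62.7 CPM in WT cells (-0.72 [-1.18, -0.28]). Adventitial fibroblast-like cells had 7.04 CPM in KI and 13.1 CPM in WT cells. Fibroblast clusters without a subclass name are not part of these values. The main alveolar fibroblast cluster had 31.6 CPM in KI and 55.6 CPM in WT cells (-0.82 [-1.46, -0.20]). The class ratio was -0.66 at equal cluster weights and -0.51 with each library clustered alone. Epithelial cells had at most 3 UMIs in either library.

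Ltbr, the lymphotoxin beta receptor, was found in all 5 compared classes. In the KI library its levels ran from 56.6 CPM [51.1, 62.5] in type 2 to 102 CPM [82.1, 125] in type 1 cells. In the WT library they ran from 61.9 CPM [55.7, 68.5] in type 2 to 110 CPM [93.8, 129] in smooth muscle or pericyte cells. None of the 5 ratios was past 0.5, the furthest being -0.31 [-0.64, 0.01] in smooth muscle or pericyte cells. In arterial-like cells it had 106 CPM in KI and 65.4 CPM in WT cells (0.70 [0.18, 1.23]), a direction that did not hold when the clusters were drawn at resolution 0.5 (-1.11). Its ligand Ltb was a lymphocyte transcript, with 242 CPM in KI and 174 CPM in WT B cells and 101 CPM in KI and 139 CPM in WT T or NK cells.

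Tnfrsf11b (osteoprotegerin) is a secreted decoy for RANKL and TRAIL. Only 2 of the compared classes had more than 16 UMIs of it in a library. Smooth muscle or pericyte cells had 24.8 CPM [18.1, 33.2] in KI and 23.2 CPM [15.97, 32.6] in WT cells. Endothelial cells had 13.8 CPM [12.0, 15.7] in KI and 20.2 CPM [18.2, 22.5] in WT cells (-0.55 [-0.80, -0.31]). In endothelium it was an aerocyte transcript, 26.4 CPM in KI and 45.1 CPM in WT aerocyte-like cells (-0.77 [-1.05, -0.50]), with lower KI values in each of the 3 large aerocyte clusters. General capillary-like cells had 41 UMIs (7.18 CPM) in KI and 31 UMIs (4.38 CPM) in WT cells, a ratio in the other direction (0.71 [0.00, 1.43]). It was 0.44 with doublets kept and 0.49 with each library clustered alone, which ends the call. In type 2 cells 4 UMIs in KI stood against 16 UMIs in WT cells (-2.20 [-4.24, -0.57]). RANKL (Tnfsf11) was seen mainly in T or NK cells, with 5 UMIs in KI and 6 UMIs in WT cells.

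Counted by class, 3 of the 9 members with at least 20 UMIs in endothelial cells were past 0.5, beside 18.7% of all 13336 genes measured there. Tnfrsf21 was higher in KI cells, beside 12.5% of all genes, and Tnfrsf11b and Tnfrsf1b were lower, beside 6.13%. Each of these 3 calls ended under some alternative, where Tnfrsf21 came to 0.498, Tnfrsf11b to -0.49 and Tnfrsf1b to -0.45. In fibroblasts 3 of 7 were past 0.5, all of them lower in KI cells, beside 26% of all genes in either direction, 17.9% higher and 8.05% lower. The third, Tnfrsf10b, rests on 7 KI and 17 WT UMIs and its interval spans 0 (-1.27 [-2.78, 0.08]). It ran from -1.67 to 0.20 over the alternatives. In smooth muscle or pericyte cells 3 of 7 were past 0.5 (Tnfrsf21 higher, Tnfrsf12a and Fas lower), beside 23.2% of all genes, 15% higher and 8.24% lower. In type 1 alveolar cells it was 1 of 4 (Tnfrsf12a, lower), beside 28.7% in either direction, 18% higher and 10.7% lower. In type 2 alveolar cells it was 3 of 8 (Tnfrsf21 higher, Tnfrsf1a and Tnfrsf11b lower), beside 19.1%, 12.6% higher and 6.52% lower. These shares rest on few genes and no test of them was made. The median ratio of the members was -0.40 in fibroblasts, against 0.08 over all genes measured, -0.24 in smooth muscle or pericyte cells, against 0.05, and -0.19 in endothelial cells, against 0.06. It was -0.01 in type 2 cells and 0.12 in type 1 cells, against 0.06 in both. The Fas ratio in smooth muscle or pericyte cells, 60.6 CPM in KI and 91.4 CPM in WT cells (-0.59 [-0.97, -0.21]), is not past 0.5 when doublets are kept (-0.24) or at equal cluster weights (-0.36). The summed level of the 8 endothelial markers in that class was 763 CPM in KI and 851 CPM in WT cells, and their part in the Fas result was not tested.

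**Figure D4:**
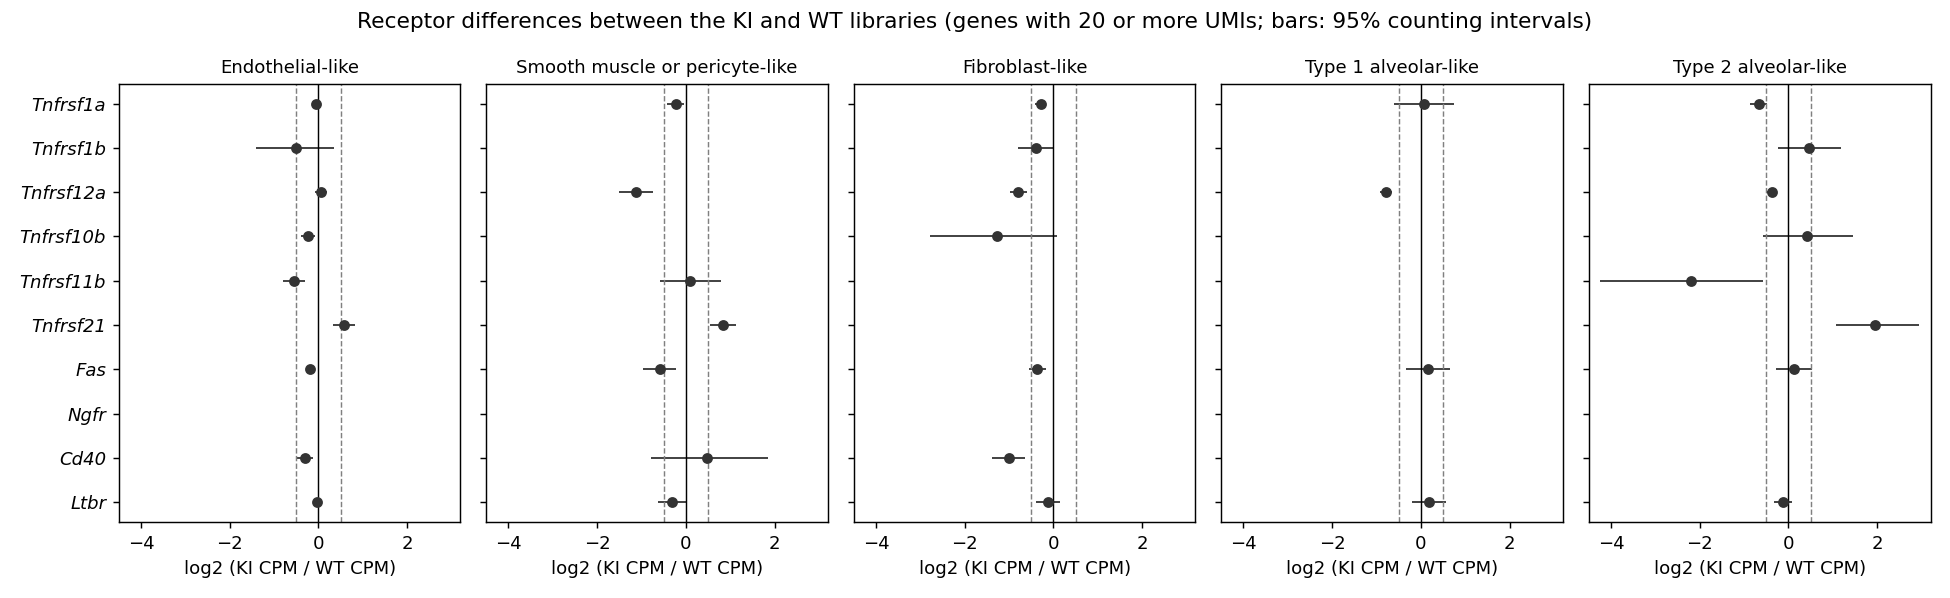
Log2 ratio of KI over WT (x axis) for each receptor with at least 20 UMIs in the 5 compared classes, with 95% counting intervals; dashed lines mark a log2 ratio of 0.5 in either direction. Tnfrsf12a was lower in KI cells of 4 classes (-1.12 in smooth muscle or pericyte cells), and Tnfrsf21 was higher in KI cells of the 3 classes where it was measured (1.96 in type 2 alveolar cells).

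Of the 19 subclass ratios past 0.5, 14 fell short of it under at least 1 alternative and 6 changed sign. The same was not counted over all genes. Among the members, 2 of 8 were past 0.5 in aerocyte-like cells (Tnfrsf21 higher, Tnfrsf11b lower), beside 18.2% of all genes, 10.3% higher and 7.86% lower. In general capillary-like cells it was 2 of 8 (Tnfrsf11b higher, Tnfrsf10b lower), beside 22.3%, 13.5% higher and 8.72% lower. The aerocyte calls and that of Tnfrsf10b in general capillary-like cells held under all alternatives run. In arterial-like cells it was 3 of 7 (Ltbr higher, Tnfrsf10b and Cd40 lower), beside 29.8%, 18.8% higher and 11% lower, and over the alternatives Ltbr came to -1.11, Tnfrsf10b to -0.49 and Cd40 to -0.31. In venous-like cells it was 3 of 6, namely Fas, Tnfrsf10b and Cd40, all lower, beside 28.7%, 16.2% higher and 12.6% lower. None of the 3 kept its direction under all alternatives, since Fas reached 0.02, Tnfrsf10b 0.20 and Cd40 0.52. In pericyte-like cells it was 4 of 7 (Tnfrsf21 and Cd40 higher, Tnfrsf12a and Fas lower), beside 24.6%, 13.7% higher and 10.9% lower. With doublets kept Fas came to -0.12, Tnfrsf12a to -0.37 and Cd40 to 0.46, and of the 4 calls that of Tnfrsf21 held under all alternatives run. Alveolar fibroblast-like cells had 3 of 6, namely Tnfrsf12a, Cd40 and Tnfrsf1b, all lower, beside 27.9%, 17.6% higher and 10.3% lower. Under the stricter cell filter Tnfrsf12a was 0.44 and Tnfrsf1b -0.20, while the call of Cd40 held throughout. Adventitial fibroblast-like cells had 2 of 5 (Tnfrsf12a and Tnfrsf1b, lower), beside 33.3%, 19.3% higher and 14% lower. With the second round at resolution 0.1 Tnfrsf12a was -0.03 and Tnfrsf1b 0.91, so neither call held.

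Leukocyte classes were too small to be compared, and their values are given side by side. T or NK cells had 8 Fas UMIs (47.7 CPM [20.6, 93.9]) in KI and 36 UMIs (200 CPM [140, 277]) in WT cells. The 8 endothelial markers summed to 554 CPM in those KI cells, with 1 of them at 0, and to 1444 CPM in the WT cells, with none at 0. The 7 type 2 alveolar markers summed to 10211 CPM in KI, with 1 of them at 0, and to 455 CPM in WT T or NK cells, with none at 0. Their part in the Fas values was not tested. TNF itself (Tnf) came from macrophage or monocyte cells, 228 CPM in KI and 380 CPM in WT cells, and from neutrophils, 124 CPM from 3 UMIs in KI and 125 CPM from 23 UMIs in WT cells. Airway epithelial cells had 17 Tnf UMIs from 2 of 46 KI cells and 1 UMI from 1 of 65 WT cells. Fas ligand (Fasl) was seen mostly in T or NK cells, 9 UMIs in KI and 10 in WT cells. Cd40lg had 5 UMIs in KI and 7 in WT T or NK cells. Tnfsf14 had 15 UMIs in WT neutrophils and 0 UMIs in the KI neutrophils. Lta had at most 4 UMIs in any class of either library.

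Of the other genes of the pathway, the receptor-proximal adaptors and kinases were measured almost completely. In endothelial cells 3 of 29 were past 0.5 higher and 1 lower in the KI library, beside 12.5% and 6.13% of all genes. In type 2 cells 7 of 27 were higher and 1 lower, beside 12.6% and 6.52%. The counts were 3 higher and 3 lower of 27 in fibroblasts, beside 17.9% of all genes higher and 8.05% lower. They were 6 and 3 of 26 in smooth muscle or pericyte cells, beside 15% and 8.24%. In type 1 cells they were 4 and 3 of 24, beside 18% and 10.7%. Tradd, the adaptor of Tnfrsf1a, was past 0.5 higher in 4 of the 5 classes. It had 17.5 CPM in KI and 12.3 CPM in WT endothelial cells (0.51 [0.25, 0.77]) and 17.7 CPM in KI and 12.0 CPM in WT fibroblasts (0.56 [0.01, 1.12]). Median-ratio scaling, which shifted ratios by -0.075 in endothelial cells and -0.071 in fibroblasts, ends the Tradd calls in both of these classes. Tradd had 24.3 CPM in KI and 11.3 CPM in WT smooth muscle or pericyte cells (1.11 [0.25, 2.03]). In type 2 cells it had 11.6 CPM in KI and 5.38 CPM in WT cells (1.10 [0.49, 1.74]). Fadd, which binds Fas, was higher in KI endothelial (0.57), smooth muscle or pericyte (1.79) and type 2 cells (0.74), from 152, 22 and 48 KI UMIs against 108, 5 and 25 WT UMIs. Traf5, which binds Cd40 and Ltbr, was higher in KI endothelial cells (40.9 CPM in KI, 24.8 CPM in WT; 0.72 [0.55, 0.90]) and fibroblasts (0.96 [0.41, 1.53]). Lower in the KI library were Map3k5 in endothelial cells (-0.56) and Tab1 (-0.74), Ripk1 (-0.52) and Map3k14 (-0.52) in fibroblasts. Traf6 was lower in KI type 2 cells (-0.97 [-1.45, -0.49]) and smooth muscle or pericyte cells (-0.78 [-1.52, -0.05]). Ikbkg was lower in KI smooth muscle or pericyte cells (-0.91 [-1.79, -0.07]). Traf1 was lower in KI type 1 cells (-0.505) and higher in KI smooth muscle or pericyte cells (1.14). In type 1 alveolar cells Casp8 (0.78) and its regulator Cflar (0.69) were higher.

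The list of feedback and NF-kB target genes gave the most one-sided counts in type 1 alveolar cells. There 10 of 15 measured genes were lower and 0 higher in the KI library, with a median of -0.71 against 0.06 over all genes, of which 10.7% were lower and 18% higher. Bcl3, an NF-kB cofactor, had 8.75 CPM in KI and 41.6 CPM in WT cells (-2.25 [-3.52, -1.19]). Tnfaip3 (A20), which ends TNF receptor signals, had 9.84 CPM in KI and 39.8 CPM in WT cells (-2.02 [-3.21, -1.01]), and Irf1 31.7 CPM in KI and 113 CPM in WT cells (-1.83 [-2.45, -1.26]). Bcl3 was lower in the KI library in all 5 classes, with 36.3 CPM in KI and 64.3 CPM in WT endothelial cells (-0.82 [-0.97, -0.68]). The type 1 class had a median of 2117 UMIs per cell in KI and 2960 UMIs in WT cells. The 8 endothelial markers summed to 1124 CPM in KI and 445 CPM in WT type 1 cells. The Nt5e-led cluster held 11 of 244 KI and 48 of 431 WT type 1 cells, and the low-depth Akap5-led one 97 KI and 124 WT cells. List genes were not measured within clusters. The part of depth, of the endothelial markers and of the mix of clusters in the result was not tested. In the other classes both directions or fewer genes were seen. In endothelial cells 3 of 22 were higher and 4 lower, beside 12.5% and 6.13% of all genes. There Irf1 was higher in KI cells (202 CPM in KI, 129 CPM in WT, ratio 0.64 [0.57, 0.72]). In fibroblasts 2 of 21 were higher (Cxcl1 and Cxcl2) and 5 lower, beside 17.9% and 8.05% of all genes. The lower ones were led by Ccl2 with 41.3 CPM in KI and 184 CPM in WT cells (-2.15 [-2.41, -1.91]). It was 1 higher and 6 lower of 20 in smooth muscle or pericyte cells, beside 15% and 8.24% of all genes. Type 2 cells had 0 and 2 of 19, beside 12.6% and 6.52%. The difference between classes was not tested.

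Other receptors of the superfamily were sparse. Of 18, 9 were measured in endothelial cells (3 higher, 2 lower), 7 in type 2 cells (0 and 2) and 4 in fibroblasts (1 and 1). In smooth muscle or pericyte cells 2 were measured (0 and 0), and in type 1 cells 0. Of all genes, 12.5% were past 0.5 higher and 6.13% lower in endothelial cells, and 17.9% and 8.05% in fibroblasts. The shares were 15% and 8.24% in smooth muscle or pericyte cells and 18% and 10.7% in type 1 cells. In type 2 cells they were 12.6% and 6.52%. These shares stand beside every count in this paragraph. Eda2r, a receptor for ectodysplasin, was higher in KI endothelial cells (37.95 CPM in KI, 24.9 CPM in WT; 0.61 [0.43, 0.79]) and fibroblasts (21.3 CPM in KI, 9.78 CPM in WT; 1.12 [0.56, 1.71]). Of the 22 ligands, 5 were measured in endothelial cells (0 higher, 1 lower), 7 in fibroblasts (0 and 2), 8 in smooth muscle or pericyte cells (2 and 0), 3 in type 1 cells (0 and 1) and 7 in type 2 cells (1 and 2). Tnfsf13b (BAFF) was lower in KI endothelial cells (5.47 CPM in KI, 9.22 CPM in WT; -0.75 [-1.14, -0.37]). Bdnf, a neurotrophin whose precursor binds Ngfr, was lower in KI type 1 alveolar cells (447 CPM in KI, 644 CPM in WT; -0.53 [-0.69, -0.36]) and fibroblasts (-1.40 [-2.27, -0.59]). Of the partners and regulators of the 10 receptors, 0 were higher and 1 lower of 15 in endothelial cells, 1 and 1 of 16 in fibroblasts, 0 and 0 of 13 in smooth muscle or pericyte cells, 1 and 0 of 11 in type 1 cells and 0 and 0 of 12 in type 2 cells. Sorcs2, a partner of Ngfr, was the type 1 gene (159 CPM in KI, 107 CPM in WT, ratio 0.57 [0.24, 0.89]). Median-ratio scaling, which shifted type 1 ratios by -0.10, ends this call.

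By the pattern of levels over the 11 classes, both libraries summed, the genes most like Fas were Gpr146, Ecscr and Abcb1a, each with a Pearson r of 0.93 on log2(CPM + 1) values. Those most like Tnfrsf12a were Bsg (0.98), Tax1bp3 (0.95) and Laptm4b (0.94). For Tnfrsf1a they were Ifitm5 (0.95), Ifitm2 (0.94) and Tlr4 (0.92), and for Cd40 Tnip2 (0.94), Smarcd2 (0.91) and Poc1b (0.89). The likeness for Tnfrsf21 was weaker, with Lasp1 (0.84), Grk3 (0.83) and Plekhg3 (0.82) on top. For Tnfrsf1b the 3 genes were Nfil3 (0.96), Nr4a3 (0.93) and Metrnl (0.92), for Tnfrsf11b Cabp1 (0.97), Fancb (0.95) and Adgrl1 (0.93), for Tnfrsf10b Gfod2 (0.90), Sdcbp2 (0.88) and Wscd1 (0.87), and for Ltbr Phf2 (0.96), Zfp768 (0.95) and Zbed3 (0.95). These were picked as the highest of 11192 genes over 11 points that share 2 libraries, and they are a description only.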

How the data were processed

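The authors deposited raw UMI counts per gene and barcode for 2 lung libraries (10x Chromium). Software version 3.0.2 stands in the matrices, per the file headers; Cell Ranger 2.0, Seurat 2.3.4, R 3.5.3 and mm10 are named per the submitters' processing notes, without roles. The receptors and gene lists were chosen with earlier results of these data known.

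Barcodes with at least 200 genes and at most 10% mitochondrial UMIs were kept. Scrublet's automatic threshold marked 0 doublets in each library, so the barcodes with the highest scores were marked and removed at 0.8% per 1000 barcodes. The marking covered all barcodes, 665 in KI and 877 in WT, and some of these also failed the filter. The filter passed 7161 KI and 8417 WT barcodes, and 6636 and 7735 were left without the marked ones. Cells were clustered in 2 rounds (scanpy 1.11.5, leidenalg 0.10.2; 2000 variable genes without the receptors and list genes, 30 components, resolution 1, then 0.2 within clusters of at least 100 cells). Clusters of at least 20 cells over both libraries were named from fixed marker lists. 9 clusterings were compared by their marker and leading genes and the last was adopted; the second round, the handling of haemoglobin and the minimum of 20 cells were chosen after seeing clusters. Forms of 6 of the others are given as alternatives added after seeing the data.

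UMIs were summed per class and library. CPM (counts scaled to 1e6 UMIs) has exact Poisson 95% intervals, shares of cells exact Clopper-Pearson intervals and log2 ratios exact conditional binomial intervals (scipy 1.17.1), all for counting error only. A gene is past 0.5 without a pseudocount; an earlier form of the rule added a small one, which was dropped after ratios had been seen, to follow the plain ratio, and this brought endothelial Tnfrsf1b past 0.5. The genes named from the lists are at most 3 per list, class and direction, furthest from 0, past 0.5 with an interval that excludes 0, plus ligands of the receptors, not all of which are reported here; Traf5, Fadd and Tradd, among others, are named under this rule. TMM (edgeR 4.0.16, R 4.3.3) and median-ratio scaling, other cell filters, gene minimums, clusterings and cluster weights were tried. The same cluster weights are the cells of a cluster over both libraries, for clusters with at least 20 cells in each. The log2 ratio, its interval and the call past 0.5 were tested on simulated Poisson counts drawn from the class sums. Such counts follow the model behind the interval, so this checks the computation and not the spread of real counts between cells. Doublet marking, clustering and naming were not tested in this way. With 1 library per group no p-value was computed.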

Additional observations from a re-analysis of the deposited data

Results flagged for a closer look

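For 3 receptors the KI and WT libraries differed in opposite directions between endothelial subclasses, each beyond counting error except where said; with 1 library per group the difference between subclasses was not tested. Fas had a log2 ratio of KI over WT of 0.16 in aerocyte-like cells, against -0.34 in general capillary-like, -0.21 in arterial-like and -0.57 in venous-like cells. Tnfrsf11b had -0.77 in aerocyte-like and 0.71 in general capillary-like cells, where the lower bound of the interval is 0.00. Tnfrsf12a had 0.47 in aerocyte-like and -0.35 in general capillary-like cells. Over the alternatives the arterial Fas ratio kept its sign in 8 of 12 and the venous one in 12 of 13, Tnfrsf11b in general capillary-like cells came down to 0.44, and Tnfrsf12a there came to -0.11.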

How the results depend on the processing

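No paired analysis was possible because each group holds 1 library, and for the same reason no library could be left out. The number of receptors past 0.5 stayed within 1.5 times the reported count in endothelial cells and fibroblasts under all alternatives run. In smooth muscle or pericyte cells it was 5 instead of 3 when genes with at least 1 UMI were counted. In type 1 alveolar cells it was 2 instead of 1 at clustering resolution 0.5, with the stricter cell filter (at least 500 genes, at most 5% mitochondrial UMIs), in the 4 single-round clusterings and with the second round at resolution 0.3, and 4 with doublets kept, with each library clustered alone or at 1 UMI. In type 2 cells it was 5 instead of 3 at equal cluster weights. Counts of list genes past 0.5 stayed within 1.5 times in all 5 classes. Of the 82 receptor ratios, 26 changed sign under at least 1 alternative. Of the 32 past 0.5, 21 fell short of 0.5 under at least 1 alternative and 7 changed sign. Of these 7, 3 had an interval that excludes 0: Tnfrsf12a in alveolar fibroblast-like cells (0.44, stricter cell filter), Ltbr in arterial-like cells (-1.11 at resolution 0.5 and -0.65 in a single round with 50 components and unscaled genes) and Fas in venous-like cells (0.019, stricter cell filter). The intervals of the other 4 span 0, and these reached 0.20 for Tnfrsf10b in fibroblasts and in venous-like cells, 0.52 for Cd40 in venous-like cells and 0.91 for Tnfrsf1b in adventitial fibroblast-like cells. The cause was not tested. Median-ratio scaling shifted all ratios of type 1 cells by -0.10. How many of all genes change sign or fall short of 0.5 under these alternatives was not counted. The receptors are thus not compared with other genes in this respect.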
